A study of Rattus norvegicus with 4 samples.

Results

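The Slc25 family holds the mitochondrial carriers, the proteins that pass nucleotides, phosphate, carboxylates, amino acids, cofactors and iron across the inner mitochondrial membrane. Its genes were examined in the adrenal medulla of rats immobilized for 2 h, against unstressed rats. Members were the probe sets whose platform annotation names 1 gene only, with a symbol that starts with Slc25a and a number. Where a gene had several such probe sets, the brightest over the 4 arrays stood for it. This gave 40 genes of the 14217 named on the array. Of these, 35 reached the level needed for testing, and Slc25a18, Slc25a31, Slc25a34, Slc25a41 and Slc25a48 did not.

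Total RNA of the adrenal medulla, the inner part of the gland whose chromaffin cells release adrenaline and noradrenaline, was hybridised to 4 single-colour arrays. They fall into 2 immobilized and 2 unstressed samples. Strain, age, and the time between the end of immobilization and the taking of tissue are not given in the descriptions used here. Nothing says that the samples of a group came from separate animals, so p-values reflect only how far these arrays differ, which may be technical. With 2 arrays a group, that number limits all precision.

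Carriers of this family share a fold of paired membrane helices that opens in turn to the cytosol and to the matrix. Most exchange one metabolite for another, so they set which substrates the matrix enzymes see: the ADP/ATP carriers export ATP, the aspartate/glutamate carriers feed the malate-aspartate shuttle, and the mitoferrins bring in iron for heme and iron-sulfur clusters. A subset that carries EF-hands, the calcium-binding motif, responds to calcium outside the matrix, which rises in chromaffin cells during secretion. One member lies in peroxisomes and another in the outer mitochondrial membrane.

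Of the 35 tested carriers, 5 rose after immobilization, 10 fell and 20 did not pass limma's test at a Benjamini-Hochberg adjusted p under 0.05. The rises were Slc25a25, Slc25a30, Slc25a16, Slc25a37 and Slc25a17. The falls were Slc25a42, Slc25a45, Slc25a21, Slc25a12, Slc25a15, Slc25a13, Slc25a46, Slc25a44, Slc25a39 and Slc25a11. The share called was 42.9%, against 33% of all 10320 tested genes, with 14.3% higher against 11.2% and 28.6% lower against 21.8%. These shares lie near the background of a contrast in which a large part of the array differs, and no test sets the family apart from other genes. The immobilized and unstressed arrays did not overlap for 28 of the 35, which is 80% against 69.7% of all tested genes. Of these 28 carriers 6 lay above and 22 below, where 24.1% and 45.6% of all genes did. Changes of at least 2-fold among the calls numbered 4 upward, 11.4% of the carriers against 5.78% of all genes, and 2 downward, 5.71% against 7.92%. The median log2 difference over the 35 carriers was -0.27, and that over all tested genes was -0.14.

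Every log2 difference here is the mean of immobilized minus that of unstressed arrays, on the scale log2(intensity + 16). The middle of the array itself lay below 0, at -0.12 over all 18625 tested probe sets. Centring each array on its median moved that value to 0.02, a shift that matters for the smaller differences below.

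**Figure D1:**
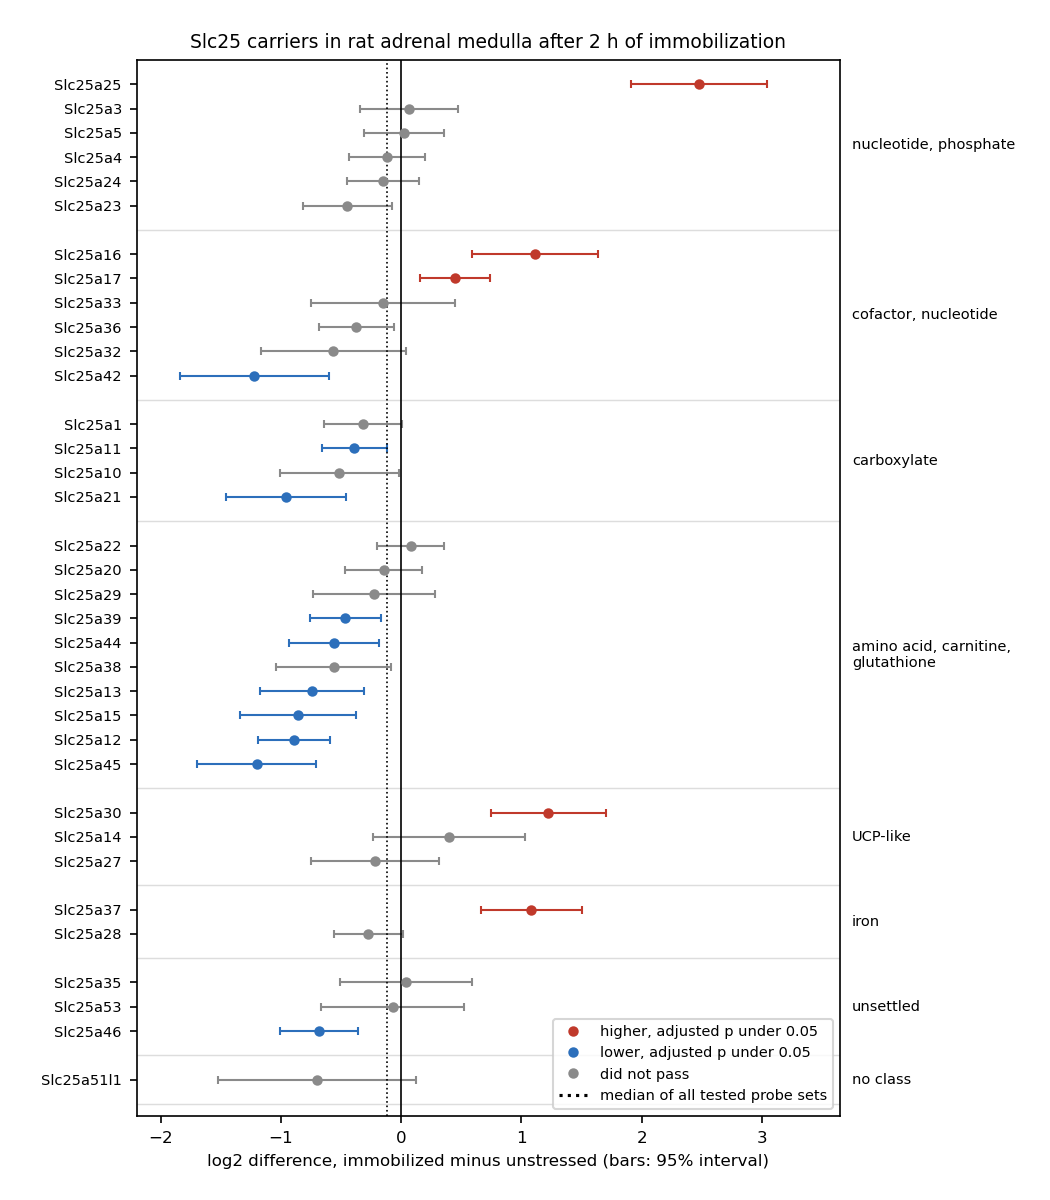
Log2 difference (immobilized minus unstressed) with its 95% interval for the 35 tested carriers, grouped by what they transport and sorted within each group. Red points rose, blue points fell and grey points did not pass. Slc25a25 stands farthest to the right at 2.48, and the amino acid group holds 6 of the 10 falls.

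Among the carriers of adenine nucleotides and phosphate, Slc25a25 alone passed the test, and it had the largest difference of the 35 tested members. Slc25a25 encodes a calcium-activated carrier that exchanges ATP-magnesium for phosphate and so changes the adenine nucleotide content of the matrix. Its intensities were 14282 and 15221 on the immobilized arrays, against 3422 and 2025 on the unstressed arrays. Both immobilized readings were far above both unstressed readings. The log2 difference was 2.48 ± 0.24 (SE, n = 2 per group), or 5.57-fold higher, with a 95% interval of 1.91 to 3.04 and an adjusted p of 0.000842 in limma.

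The bulk exchangers of this class had readings that overlapped between groups. Slc25a4, the ADP/ATP carrier of muscle and heart, read 23212 and 20004 in immobilized rats, against 23199 and 23467 in unstressed rats. Slc25a5, the ADP/ATP carrier of dividing and many other cells, read 29945 and 26684 against 26268 and 29555 in unstressed rats. Slc25a3, which imports phosphate for ATP synthesis and is also a copper carrier, read 55769 and 42716 in immobilized rats and 46714 and 46548 in unstressed rats. Neither group was consistently higher for any of these 3 genes. Their log2 differences were -0.11, 0.02 and 0.07, with 95% intervals of -0.43 to 0.20, -0.31 to 0.35 and -0.34 to 0.48. The direction of Slc25a4 flips under median centring and that of Slc25a5 under quantile normalization, and the direction of Slc25a3 without immobilized 1. Slc25a4 passed as lower after quantile normalization, at -0.28 with an adjusted p of 0.0482 in limma, where 13 alternatives gave 0.0482 to 0.976.

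Both close relatives of Slc25a25 were lower on average and did not pass. Slc25a23 had a log2 difference of -0.45 ± 0.16 (adjusted p = 0.0683 in limma), and a dimmer probe set fell, at -0.96 (adjusted p = 0.0246). Slc25a24 had -0.15 with a 95% interval of -0.45 to 0.15. With Slc25a12 and Slc25a13, these are the EF-hand carriers, a grouping made after the values were seen. Of these 5 genes 1 rose and 2 fell, 20% higher and 40% lower beside 11.2% and 21.8% of all tested genes. No test sets these 5 apart.

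The malate-aspartate shuttle carries reducing power from cytosolic NADH into the matrix, and its 2 transport steps are an aspartate/glutamate carrier and the oxoglutarate/malate carrier. All 3 carrier genes of the shuttle fell, beside 21.8% of all tested genes. They belong to the amino acid and carboxylate classes and were not a list of their own. No test sets these 3 apart. Slc25a12, or aralar, the aspartate/glutamate carrier of brain and muscle, read 3522 and 3806 in immobilized rats, against 6775 and 6812 in unstressed rats. Replicates lay close together and the groups far apart. Its log2 difference was -0.89 ± 0.13, or 1.85-fold lower (adjusted p = 0.0034 in limma).

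Slc25a13, or citrin, the second aspartate/glutamate carrier, best known from liver, read 1813 and 1547 in immobilized rats, against 2627 and 2995 in unstressed rats. The groups did not overlap, and the log2 difference was -0.74 ± 0.18 (adjusted p = 0.023 in limma). A second probe set gave the same size, -0.73. Slc25a11, the oxoglutarate/malate carrier, read 9411 and 9426 in immobilized rats, against 12215 and 12492 in unstressed rats. Its log2 difference was -0.39 ± 0.11 (adjusted p = 0.0404 in limma), which is -0.27 relative to the median of all tested probe sets, and the call was lost when arrays were centred on their medians (-0.25, adjusted p = 0.198). In all, 7 of 13 alternatives lost it, among them no filter and no intensity trend, with adjusted p from 0.0165 to 0.198.

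The enzymes of the same shuttle did not pass with the deposited scaling and all 4 arrays. Got1, the cytosolic aspartate aminotransferase, read 24841 and 12339 in immobilized rats, against 3821 and 10623 in unstressed rats, a log2 difference of 1.46 ± 0.50 (adjusted p = 0.0653 in limma). It passed under median centring (1.60, adjusted p = 0.0359) and without unstressed 2 (2.19, adjusted p = 0.000439), and 13 alternatives gave adjusted p from 0.000439 to 0.332. Its mitochondrial counterpart Got2 had -0.23, which passed after quantile normalization (-0.36, adjusted p = 0.0159, the alternatives running from 0.0159 to 0.683), and the malate dehydrogenase genes Mdh1 and Mdh2 had -0.07 and 0.12, with directions that flip under median centring for Mdh1 and quantile normalization for Mdh2. By contrast Gpd1, the cytosolic enzyme of the glycerol phosphate shuttle, which needs no carrier of this family, fell. Its readings were 4316 and 5045 in immobilized rats and 10252 and 14284 in unstressed rats, a log2 difference of -1.37 ± 0.18 (adjusted p = 0.00272 in limma). Gpd2, the mitochondrial enzyme of the glycerol phosphate shuttle, read 4084 and 3503 in immobilized rats, against 3166 and 2450 in unstressed rats. That difference of 0.44 ± 0.18 did not pass (adjusted p = 0.111 in limma).

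All 4 carboxylate carriers had lower readings on both immobilized arrays than on either unstressed array, as did 45.6% of all tested genes, and 2 of the 4 fell, beside 21.8% of all genes. Besides Slc25a11, that was Slc25a21, which carries oxoadipate and related products of lysine and tryptophan breakdown. Slc25a21 read 1477 and 1982 in immobilized rats, against 3004 and 3714 in unstressed rats, 1.94-fold lower at a log2 difference of -0.96 ± 0.21 (adjusted p = 0.0156 in limma). Slc25a1, which exports citrate for fatty acid and sterol synthesis, read 16327 and 13974 in immobilized rats and 18058 and 19603 in unstressed rats. That difference of -0.32 ± 0.13 did not pass (adjusted p = 0.119 in limma), though it did after quantile normalization (-0.46, adjusted p = 0.017, the lowest of 13 alternatives, of which the highest gave 0.391). Slc25a10, the dicarboxylate carrier, had -0.51 ± 0.21 and did not pass (adjusted p = 0.106), while its dimmer probe set fell, at -1.62 ± 0.30 (adjusted p = 0.00897).

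Of the 10 tested carriers of amino acids, carnitine and glutathione, 6 fell and 0 rose, 60% lower beside 21.8% of all tested genes, with a median log2 difference of -0.56. No test sets this class apart. Slc25a45 showed the largest fall of this class. It read 991 and 905 in immobilized rats, against 1976 and 2443 in unstressed rats, 2.30-fold lower at -1.20 ± 0.21 (adjusted p = 0.0067 in limma). Slc25a15, the ornithine carrier of the urea cycle, read 1214 and 1118 in immobilized rats, against 2360 and 1911 in unstressed rats. The log2 difference was -0.86 ± 0.20 (adjusted p = 0.0202 in limma).

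The probe sets of Slc25a15 disagreed. Besides the brightest, one fell by 1.14 on the log2 scale and another had a difference of 0.17 that did not pass. With the mean of all its probe sets the gene did not pass (-0.53, adjusted p = 0.123 in limma, against 0.00989 to 0.127 over 13 alternatives).

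Slc25a44, a carrier of branched-chain amino acids described in mouse brown fat, read 2389 and 2235 in immobilized rats, against 3628 and 3203 in unstressed rats. Its difference was -0.56 ± 0.16 (adjusted p = 0.0365 in limma). The call was lost in 5 of 13 alternatives, among them quantile normalization, median centring and the omission of unstressed 1, but a second probe set also fell, at -0.85 (adjusted p = 0.023). Slc25a39, which brings glutathione into the matrix, read 15913 and 15848 in immobilized rats and 20858 and 23024 in unstressed rats. The difference of -0.46 ± 0.12 (adjusted p = 0.03 in limma) is -0.34 relative to the array's median and its call was lost in 6 of 13 alternatives, among them median centring, no intensity trend, the mean of its probe sets and the omission of unstressed 2.

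The other 4 genes of the class did not pass. Slc25a20, which brings acylcarnitines in for fatty acid oxidation, read 4830 and 4528 in immobilized rats, against 4853 and 5513 in unstressed rats. Its log2 difference of -0.15 had a 95% interval of -0.47 to 0.18. Slc25a22, a glutamate carrier, had 0.08, Slc25a29, a carrier of basic amino acids, -0.23, and Slc25a38, which supplies glycine for heme synthesis, -0.56 ± 0.20 (adjusted p = 0.0764 in limma).

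Iron carriers parted. Slc25a37, mitoferrin 1, the main iron importer of developing red cells, read 2927 and 2943 in immobilized rats, against 1478 and 1280 in unstressed rats. It rose 2.12-fold, by 1.08 ± 0.18 on the log2 scale (adjusted p = 0.0054 in limma). Slc25a28, mitoferrin 2, its counterpart in other tissues, read 5929 and 6460 in immobilized rats and 7474 and 7488 in unstressed rats, below in both. Its difference of -0.27 ± 0.12 did not pass (adjusted p = 0.134), and the difference between the responses of the mitoferrins was not tested.

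Of the red cell markers only Alas2 and Hbb were bright enough to be tested, and neither passed. On the array were 3 of the 5 listed markers, summing to 37084 and 18463 in immobilized rats and 21060 and 26140 in unstressed rats, nearly all of it Hbb. Alas2, the red cell form of the first heme enzyme, had a log2 difference of 0.30 (adjusted p = 0.453 in limma). Ahsp, the red cell chaperone of alpha globin, gave readings that all lay within 2.18 to 257, the range of the 27 control probe sets for Bacillus transcripts. Alas1, the form of that enzyme found in all tissues, read 64547 and 50040 in immobilized rats, against 8393 and 8819 in unstressed rats. It rose 6.60-fold, by 2.72 ± 0.15 (adjusted p = 0.000128 in limma), whereas Fech, which inserts the iron, had -0.45 ± 0.14 and did not pass (adjusted p = 0.0516), though 3 of 13 alternatives put it past the threshold (adjusted p from 0.0253 to 0.275 in all).

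**Figure D2:**
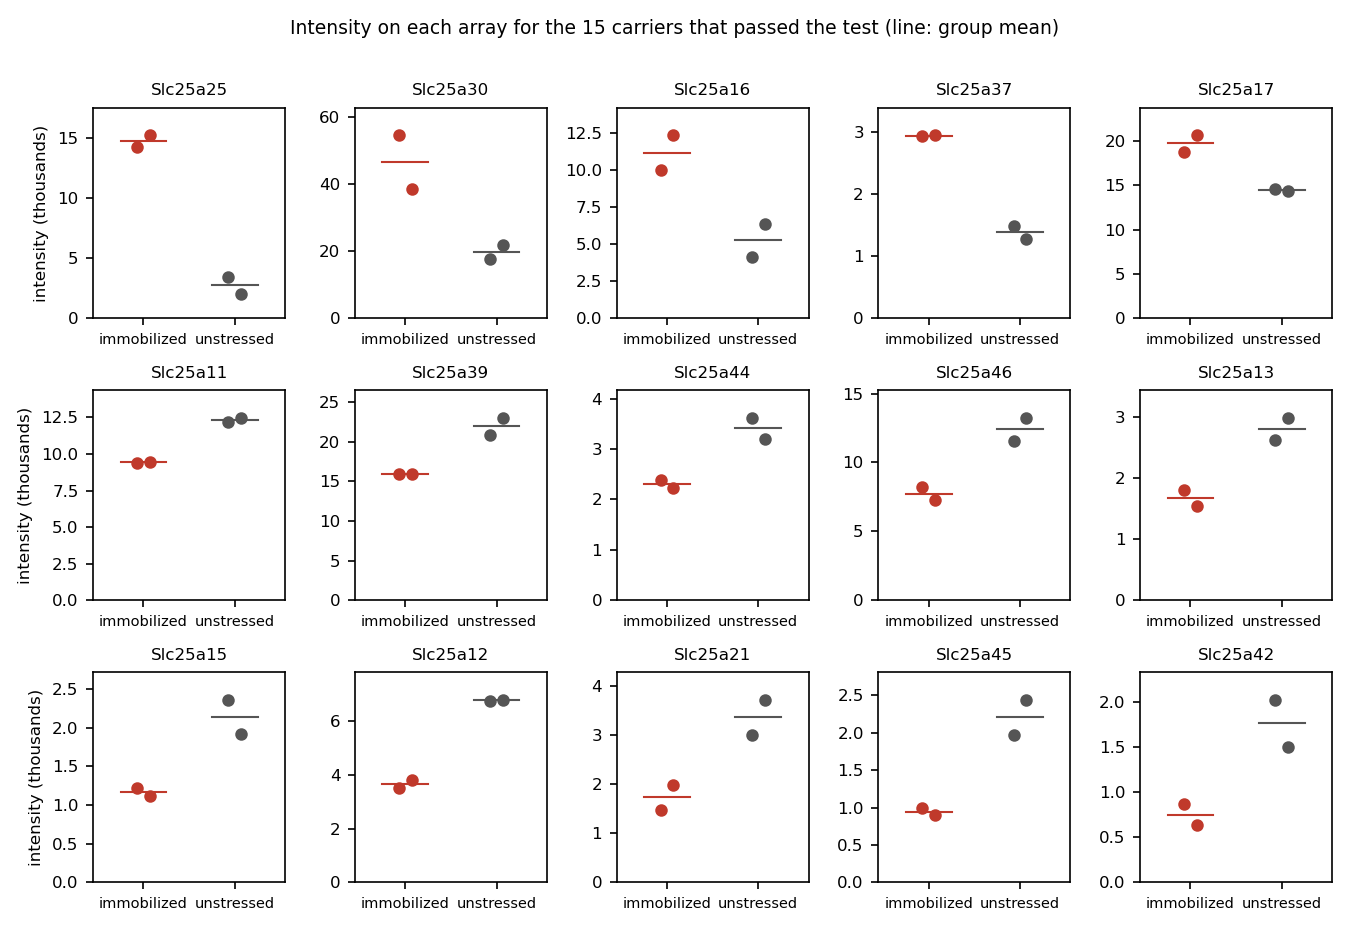
Linear intensity on each array (axes from 0) for the 15 carriers that passed the test, immobilized on the left and unstressed on the right of each panel, with a line at each group mean. In no panel do the groups overlap, which choosing carriers that passed makes likely. Of all tested genes 69.7% did not overlap. Panels run from 14282 and 15221 against 3422 and 2025 for Slc25a25 to 868 and 632 against 2025 and 1505 for Slc25a42.

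Among the 6 tested carriers of cofactors and nucleotides, 2 rose and 1 fell, 33.3% higher and 16.7% lower beside 11.2% and 21.8% of all tested genes, and all 3 are linked to coenzyme A. Slc25a16, tied to the coenzyme A content of the matrix through its yeast counterpart, read 10029 and 12367 in immobilized rats, against 4136 and 6391 in unstressed rats. It rose 2.16-fold, by 1.11 ± 0.22 on the log2 scale (adjusted p = 0.0109 in limma). Slc25a42, which exchanges coenzyme A for adenine nucleotides across the inner membrane, went the other way. It read 868 and 632 in immobilized rats, against 2025 and 1505 in unstressed rats, 2.33-fold lower at -1.22 ± 0.26 (adjusted p = 0.0141 in limma).

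Slc25a17, the peroxisomal member, which carries coenzyme A, FAD and NAD, read 18825 and 20656 in immobilized rats, against 14568 and 14352 in unstressed rats. The difference of 0.45 ± 0.12 passed (adjusted p = 0.0325 in limma) and is 0.57 relative to the array's median, but the call was lost after quantile normalization (0.32, adjusted p = 0.0567). It was lost in 7 of 13 alternatives, whose adjusted p ran from 0.016 to 0.146. Slc25a36 and Slc25a33, carriers of pyrimidine nucleotides, and Slc25a32, which carries folate or FAD, did not pass, at -0.37, -0.15 and -0.56. The dimmer probe set of Slc25a36 had the opposite sign, 0.61, and did not pass either.

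Of the 3 tested relatives of the uncoupling proteins, which let protons leak back into the matrix, only Slc25a30 passed. Slc25a30, first described as a kidney mitochondrial carrier, read 54444 and 38468 in immobilized rats, against 17664 and 21718 in unstressed rats. It rose 2.34-fold, by 1.22 ± 0.20 (adjusted p = 0.00562 in limma). Its second probe set read 44612 and 33859 in immobilized rats, against 4864 and 7608 in unstressed rats, 6.37-fold higher at 2.67 ± 0.24 (adjusted p = 0.000628). Both probe sets showed the rise, and they differed in its size.

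Slc25a14 and Slc25a27, the brain members of this group, had 0.40 and -0.22 and did not pass. Nor did the uncoupling protein genes Ucp2 and Ucp3, at -0.03 and -0.13, both above 0 under median centring and Ucp3 also after quantile normalization. Ucp1, the uncoupling protein of brown fat, was not tested, with readings of 46.9 and 672 in immobilized rats and 128 and 90.7 in unstressed rats, 3 of them within the range of the Bacillus controls.

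Slc25a46, an outer membrane protein that takes part in mitochondrial fission and lipid transfer, fell. It read 8205 and 7242 in immobilized rats, against 11554 and 13258 in unstressed rats, a difference of -0.68 ± 0.13 (adjusted p = 0.0107 in limma), and its second probe set gave -0.72. Slc25a35, Slc25a53 and Slc25a51l1 did not pass, at 0.04, -0.07 and -0.70. The direction of Slc25a53 flips under quantile normalization and median centring. Over the 20 carriers that did not pass, log2 differences ran from -0.70 to 0.40, and their 95% intervals reached between 0.28 and 0.82 to either side.

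Among the 5 untested carriers, Slc25a34 and Slc25a48 lay above in immobilized rats and Slc25a18 below, without overlap between the groups. Of all tested genes 69.7% did not overlap. Slc25a34 read 431 and 501 in immobilized rats, against 42.2 and 45.4 in unstressed rats, the unstressed pair within the range of the Bacillus controls. Its unstressed level was thus not shown to lie above background, so the size of the difference is not given here, and when dim probe sets were tested as well its adjusted p in limma was 0.00479. Slc25a18, a glutamate carrier, read 42.5 to 165, wholly within that range. Slc25a31, the ADP/ATP carrier of testis, Slc25a41 and Slc25a48 read 224 to 436 over all arrays.

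**Figure D3:**
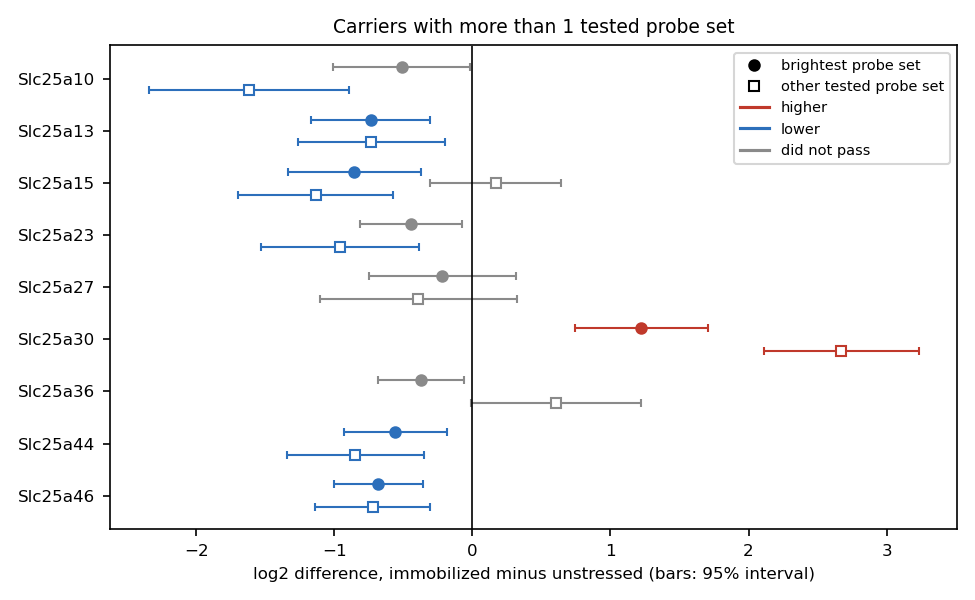
Log2 difference (immobilized minus unstressed) with its 95% interval for the 9 carriers with more than 1 tested probe set, the brightest as a filled circle and the others as open squares. Probe sets of 2 genes, Slc25a15 and Slc25a36, lie on both sides of 0, and those of Slc25a10, Slc25a15 and Slc25a23 differ in whether they passed.

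Calls that held under all alternatives run were those on Slc25a25, Slc25a30 and Slc25a12. The other 12 each lost the call without immobilized 1 and without immobilized 2, and kept their direction. With either of these arrays left out, the spread comes from the unstressed pair alone, and 2 carriers rose and 1 fell.

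Upstream sequence was examined because stress signals in chromaffin cells are known to act through cAMP-responsive, AP-1 and NR4A transcription factors. It is shown for both carriers with the full element and for Slc25a16, which has the core and rose. It is also shown for Slc25a34, an untested dim carrier with an NR4A match. Other carriers with a match are not shown. RefSeq promoter windows (GRCr8) were found for 34 of the 40 members, and the 250 bases before each gene's start were searched on both strands. The motifs were the cAMP response element TGACGTCA, its core TGACG, which also lies inside each full element, the AP-1 motif TGANTCA and the NR4A motif AAAGGTCA. The full element occurred in the windows of Slc25a25, which rose, and of Slc25a33, which did not pass, against 1.59% of all 33469 windows. TGACG occurred in 8 of the 34, against 18.2% of all windows. Of these Slc25a25 and Slc25a16 rose and Slc25a13 fell. Slc25a1, Slc25a3, Slc25a10, Slc25a33 and Slc25a38 did not pass. AAAGGTCA occurred in Slc25a34 alone, against 1.24%, and TGANTCA in Slc25a11 alone, against 6.34%. A match is a run of letters and not a shown binding site. In the sequences that follow, written 5' to 3', capitals mark TGACGTCA and TGACG, or their reverse complements, in the first 3, and the reverse complement of AAAGGTCA in the last.
Slc25a25 (chr3:36116582-36116831, minus strand): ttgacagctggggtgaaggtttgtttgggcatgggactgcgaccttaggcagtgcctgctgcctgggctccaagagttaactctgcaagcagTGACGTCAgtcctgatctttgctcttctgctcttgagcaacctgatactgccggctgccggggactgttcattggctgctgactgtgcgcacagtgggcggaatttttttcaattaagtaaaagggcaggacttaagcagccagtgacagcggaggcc
Slc25a33 (chr5:165502974-165503223, minus strand): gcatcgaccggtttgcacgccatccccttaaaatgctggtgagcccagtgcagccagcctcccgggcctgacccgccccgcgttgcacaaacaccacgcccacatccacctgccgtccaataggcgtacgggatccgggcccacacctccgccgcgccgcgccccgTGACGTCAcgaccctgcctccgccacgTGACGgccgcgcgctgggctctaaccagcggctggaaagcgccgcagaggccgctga
Slc25a16 (chr20:25715008-25715257, minus strand): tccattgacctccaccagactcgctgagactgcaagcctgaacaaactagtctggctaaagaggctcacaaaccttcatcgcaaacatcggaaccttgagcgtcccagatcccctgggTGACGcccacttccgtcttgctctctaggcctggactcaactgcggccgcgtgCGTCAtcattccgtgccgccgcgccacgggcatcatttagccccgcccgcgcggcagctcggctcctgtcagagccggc
Slc25a34 (chr5:159219893-159220142, minus strand): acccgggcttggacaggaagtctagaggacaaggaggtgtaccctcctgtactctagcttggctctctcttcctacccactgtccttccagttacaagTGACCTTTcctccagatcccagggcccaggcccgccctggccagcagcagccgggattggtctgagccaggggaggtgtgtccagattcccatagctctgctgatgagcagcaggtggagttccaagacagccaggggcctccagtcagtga
The element of Slc25a25 begins 158 bases before the annotated start, that of Slc25a33 begins 84 bases before it, and the first match of Slc25a16 begins 132 bases before it. Slc25a33 read 855 and 764 in immobilized rats and 1065 and 756 in unstressed rats, so of the 2 carriers with the full element 1 rose and 1 had overlapping groups.

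Partner genes of the carriers were taken from 4 lists, of which 71 genes were tested: 10 rose and 9 fell. That is 14.1% higher and 12.7% lower, beside 11.2% and 21.8% of all tested genes. Of 22 other mitochondrial channels and transporters, 3 rose and 3 fell, 13.6% each way, with a median of -0.03. Ppif, cyclophilin D, which sensitises the permeability transition pore to calcium, read 10049 and 10927 in immobilized rats, against 3521 and 4151 in unstressed rats, and rose by 1.45 ± 0.14 (adjusted p = 0.000825 in limma). The genes around the mitochondrial calcium uniporter moved apart. Mcub, its inhibitory subunit, rose by 1.35 ± 0.25 (adjusted p = 0.00876). Micu2, a gatekeeper subunit that keeps the pore shut at low calcium, read 3306 and 3488 in immobilized rats, against 7023 and 8189 in unstressed rats, a difference of -1.16 ± 0.14 (adjusted p = 0.00179). Slc8b1, the sodium/calcium exchanger of the inner membrane, fell at -0.79 and Sfxn4 at -0.95, while Sfxn1, a serine carrier, rose by 0.42. The call on Sfxn1 was lost in 6 of 13 alternatives and that on Slc8b1 in 3 of 12. Those on Mcub and Sfxn4 were lost without immobilized 1 and without immobilized 2. The pore gene Mcu had 0.61 and did not pass (adjusted p = 0.0735 in limma). It passed after quantile normalization (adjusted p = 0.0392) and median centring (adjusted p = 0.0416).

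Of 25 enzymes that make or use the carried metabolites, 4 rose and 3 fell, with a median of -0.18. That is 16% higher and 12% lower, beside 11.2% and 21.8% of all tested genes. Ass1, which joins citrulline with aspartate, the product exported by Slc25a12 and Slc25a13, read 27420 and 29739 in immobilized rats, against 3658 and 4715 in unstressed rats. It rose 6.85-fold, by 2.78 ± 0.15 (adjusted p = 0.000117 in limma). Ckb, the brain creatine kinase, rose by 1.16 and Mat2a, which makes S-adenosylmethionine, by 1.0. The carnitine enzyme genes Cpt2 and Crat fell, at -0.95 and -0.55, the call on Crat being lost under median centring (adjusted p = 0.0634, 0.0106 to 0.106 over the alternatives), beside the carrier Slc25a20 at -0.15, which did not pass.

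Carriers reach the inner membrane through small chaperones of the intermembrane space and the TIM22 complex. Of 13 genes of that import route 0 rose and 3 fell, which is 23.1% lower and near the 21.8% of all tested genes, with a median of -0.27. The falls were the chaperone genes Timm9 and Timm13, at -0.48 and -0.39, and Timm29, a TIM22 subunit gene, at -0.54. With the mean of its probe sets Timm29 had -0.071 and did not pass (adjusted p = 0.747 in limma). All 3 calls were lost under median centring and without the intensity trend, and those on Timm9 and Timm13 have adjusted p of 0.047 and 0.0461 in limma. Of 11 tested regulators of mitochondrial gene expression 3 rose and 0 fell, with a median of -0.30. That is 27.3% higher and 0% lower, beside 11.2% and 21.8% of all tested genes. Without overlap, 3 of the 11 lay above and 6 below, where 24.1% and 45.6% of all genes did. Ppara, also listed, was too dim to be tested. It read 27.3 and 39.0 in immobilized rats, within the range of the Bacillus controls, against 281 and 461 in unstressed rats. Pprc1, a coactivator of the PGC-1 family that responds rapidly to growth signals, read 3363 and 3661 in immobilized rats, against 1325 and 1265 in unstressed rats, and rose by 1.43 ± 0.17 (adjusted p = 0.00171). The transcription factor genes Gabpb1 and Yy1 rose by 0.66 and 0.62, though Yy1 did not pass with the mean of its probe sets (0.12).

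**Figure D4:**
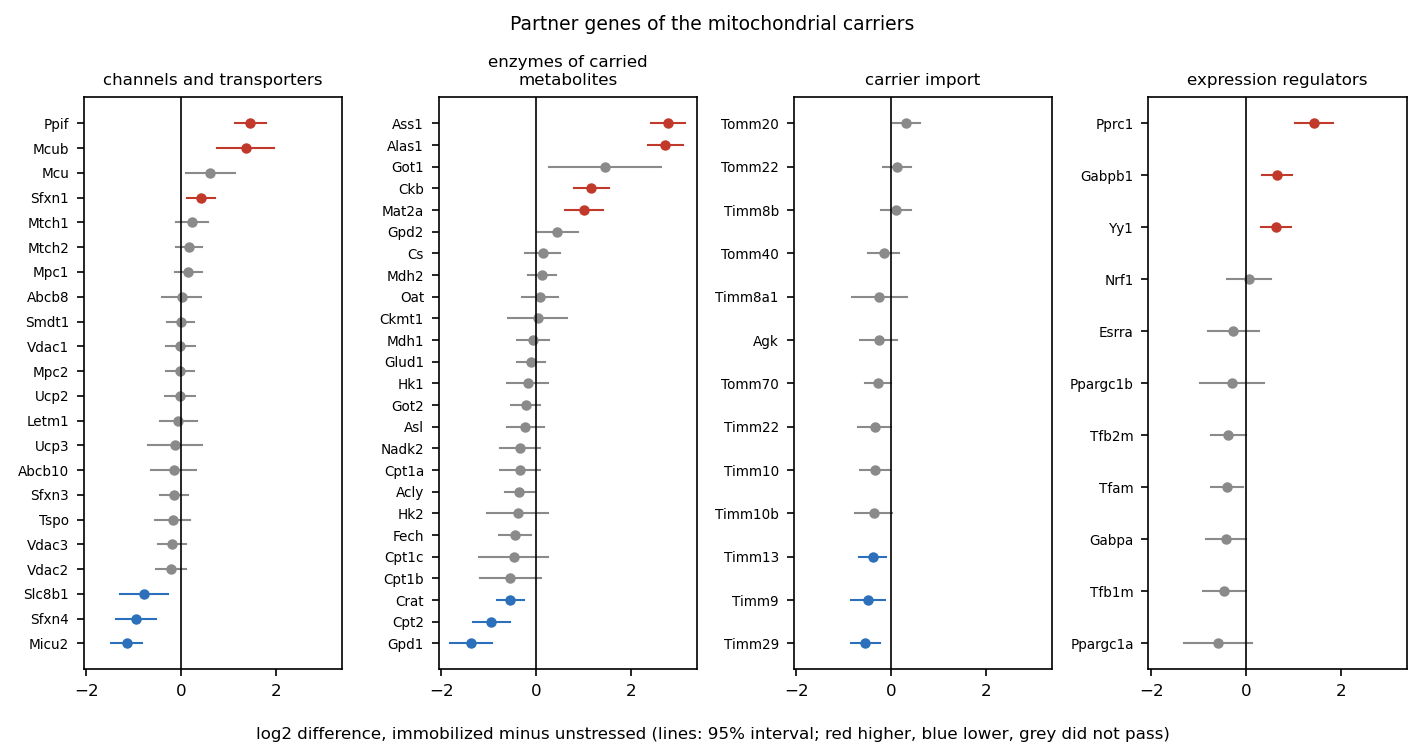
Log2 difference (immobilized minus unstressed) with its 95% interval for the 71 tested partner genes in 4 lists, red for rises, blue for falls and grey for genes that did not pass. Ass1 and Alas1 stand farthest to the right, at 2.78 and 2.72, and the 3 calls of the import list are all on the left.

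Transcripts typical of the adrenal cortex were measured beside those of chromaffin cells. All 7 chromaffin markers were tested and 0 passed, and their summed intensities were 284448 to 401375 in immobilized rats and 302443 to 326705 in unstressed rats. Of the 7 listed cortex markers 5 were on the array, none was near 0, and 0 passed. Their sums were 186105 to 255749 in immobilized rats and 243208 to 275154 in unstressed rats. Star was about as bright as the chromaffin marker Th, at 43245 to 63873 beside 44651 to 68379 over the 4 arrays. Star and Hsd3b1 overlapped between the groups. The other cortex markers, Cyp11a1, Cyp11b1 and Cyp21a1, were lower on both immobilized arrays, as were 45.6% of all tested genes. Cyp11b1, which makes corticosterone, had the largest difference of these, -0.64 ± 0.21 (adjusted p = 0.0591 in limma), and it passed after quantile normalization (-0.76, adjusted p = 0.0123) and without unstressed 1 (-0.95, adjusted p = 0.00319, the alternatives running from 0.00319 to 0.214). The part of cortex in the carriers' falls was not tested. In tissue RNA, fewer cells of a type and less RNA per cell cannot be told apart. Among the other marker lists, Gfap rose by 1.76 and S100b fell by 0.59 in the Schwann and sustentacular list, where 3 of 5 markers were on the array and their sums were 6159 to 7068 in immobilized rats and 6817 to 7880 in unstressed rats. Of the endothelial markers, 3 of 4 were on the array and they did not move together. Kdr fell by 0.79, a call lost in 5 of 13 alternatives, among them median centring and no intensity trend. Pecam1 and Vwf were higher on both immobilized arrays, at 0.54 and 0.36, and did not pass. The endothelial sums were 15494 to 17748 in immobilized rats and 19141 to 27471 in unstressed rats. Most of each sum was Kdr, which read 9781 and 12099 in immobilized rats and 15830 and 22501 in unstressed rats. None of the 4 macrophage markers passed. Only 1 of the 5 fat markers, Cidea, was bright enough to be tested, and it did not pass.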

How the data were processed

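The deposited table holds linear probe set intensity values, 1 column for each of 4 arrays, with 31099 rows. The sources used here do not give the authors' probe summary. All columns share one trimmed mean (spread 0.00572%, 2% left out at each end), so the deposited scaling was kept. That equality does not show that the arrays match at every intensity. Median intensities were 864 and 827 on the immobilized arrays and 955 and 911 on the unstressed arrays. Sums of the bright chromaffin markers were 401375 on immobilized 1 and 284448 on immobilized 2, against 326705 and 302443 on the unstressed arrays. Unused sample columns numbered 0, and 57 control probe sets were removed. Groups came from the sample descriptions, and replicates were numbered in accession order.

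Intensities were turned into log2(intensity + 16), so fold changes of dim genes are understated. Probe sets under the 40th percentile of mean level (intensity near 544) were set aside, and 18625 remained. Immobilized and unstressed arrays were compared by a two-sided test in limma 3.58.1 under R 4.3.3 (lmFit, eBayes with an intensity trend, 6.81 degrees of freedom), and p-values were Benjamini-Hochberg adjusted over the 18625. The script was tested on simulated data. An exact permutation test of 2 against 2 cannot give a p below 0.33 and is not reported. Genes were named from GEO's platform annotation, updated by Entrez identifier (GRCr8 gene table: all 40 members matched, 0 symbols changed). Probe sets listing 1 gene numbered 20826, several 436 and none 9780.

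The members and gene lists were chosen with earlier results of these data known. Values per array are given for carriers that passed and for 10 carriers of well-known function. Up to 6 called genes of each partner list were to be named. Crat, Got1, Got2, Mdh1, Mdh2, Gpd2, Fech, Mcu, Ucp1, Ucp2 and Ucp3 were added after their values were seen. The motifs were also chosen after values were seen. Alternatives were quantile normalization, median centring, offsets of 1 and 64, no filter, filtering at the 60th percentile, a variance model without the trend or with robust estimation, each array left out, a threshold of 0.1 and averaging over each gene's probe sets. Plots were drawn with matplotlib 3.10.9.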

Additional observations from a re-analysis of the deposited data

How the results depend on the processing

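No paired analysis was possible because the labels give no numbers that pair immobilized with unstressed samples. Among the carriers, 4 or 5 rose and 7 to 13 fell under the alternatives that keep all 4 arrays, against 5 and 10. With an array left out the rises ranged from 2 to 4 and the falls from 1 to 11, lowest without immobilized 1 or immobilized 2. Over the same 4 settings the partner genes ranged from 6 to 11 rises and 2 to 9 falls, and all probe sets from 774 to 2733 rises and 991 to 3763 falls. Median centring left 5 falls among the partner genes and a median difference of -0.13 over the carriers. Calls on Ppif, Micu2, Ass1, Alas1, Gpd1, Ckb, Mat2a and Pprc1 held under all alternatives run, as did that on the marker Gfap. The other called partner and marker genes, among them Cpt2, Gabpb1 and S100b, lost their calls without immobilized 1 and without immobilized 2. The split of all calls depended on the scaling: 37.6% were rises as deposited, 44.9% after quantile normalization and 53.2% after median centring. Of the carriers and the partner and marker genes recomputed, directions reversed only where the gene had not passed: Slc25a5 (-0.11), Slc25a53 (0.059), Mdh2 (-0.028) and Ucp3 (0.032) after quantile normalization, Slc25a4 (0.025), Slc25a53 (0.070), Mdh1 (0.067), Ucp2 (0.11) and Ucp3 (0.0077) after median centring, and Slc25a36 with the mean of its probe sets (0.12). With an array left out, Slc25a3 ranged from -0.13 (without immobilized 1) to 0.26, Slc25a5 from -0.064 to 0.11 (below 0 without immobilized 1 and without unstressed 1), Slc25a33 from -0.39 to 0.094 (without unstressed 1) and Slc25a53 from -0.25 to 0.11 (above 0 without immobilized 2 and without unstressed 1). Likewise Mdh1 ranged from -0.20 to 0.057, Ucp2 from -0.11 to 0.045, Ucp3 from -0.39 to 0.13 and Alas2 from -0.036 (without immobilized 1) to 0.63. Carriers that passed only elsewhere included Slc25a36 and Slc25a10 without unstressed 1 (adjusted p = 0.0282 and 0.0372 in limma, with highest values of 0.654 and 0.472 over the alternatives), Slc25a51l1 without unstressed 1 (-1.20, adjusted p = 0.00465, highest 0.649), Slc25a23 without unstressed 2 (-0.59, adjusted p = 0.0209, highest 0.273) and Slc25a38 without the trend (adjusted p = 0.0428, highest 0.235). The cause was not tested. Low intensity limits Slc25a34, Slc25a18, Slc25a31 and Slc25a41, whose readings fall within the range of the control probe sets on at least 1 array.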

Other observations

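The annotation lists Slc25a51, the NAD carrier of the inner membrane, under 2 gene identifiers, so its probe sets lay outside the rule for members. One read 4989 and 4928 in immobilized rats, against 7207 and 9189 in unstressed rats, a log2 difference of -0.71 ± 0.15 (adjusted p = 0.0138 in limma). The other read 2551 and 2426 in immobilized rats, against 3272 and 4364 in unstressed rats, at -0.60 ± 0.18 (adjusted p = 0.0461). Both were lower on each immobilized array than on either unstressed array, as were 45.6% of all tested genes. Of all tested genes 21.8% were called lower. These 2 probe sets were not rerun under the alternatives. Slc25a51l1, the related member that was tested, read 935 and 1174 in immobilized rats and 1198 and 2435 in unstressed rats and did not pass.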
